A study of Homo sapiens with 12 samples.

Results

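The integrated stress response and the unfolded protein response are described here through a list of 37 gene symbols, of which 36 were found among the 13310 genes of the deposited table. NUPR1 was not analysed here. The 36 genes fall into 6 roles: 4 code for a kinase of the translation factor eIF2, for eIF2 itself and for its phosphatase subunits, 8 for ATF4 and stress genes downstream of it, 5 for enzymes of serine synthesis and one-carbon metabolism, 3 for the sensors IRE1 and ATF6 with XBP1, 12 for chaperones and folding enzymes of the endoplasmic reticulum (ER), and 4 for ER-associated degradation. Every one of the 36 had a mean above the smallest mean of the table, 12.2 normalized counts, and no further filter on low values was applied.

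The 12 libraries hold polyadenylated RNA of H9, a long-used human embryonic stem cell line that the labels give as wild type, in 4 groups of 3 replicates. UNDIF cells were kept in mTeSR medium on Matrigel. NEUR cells were moved to a knockout serum replacement medium with A83-10 and Dorsomorphine, which block both branches of SMAD signalling, and then stepwise to NSC medium containing the growth factors EGF and bFGF. DMSO_NEUR and FT671_NEUR cells went through the same differentiation with the solvent DMSO, or with FT671, a compound that inhibits USP7, an enzyme that removes ubiquitin from proteins. Neither the dose nor the duration of FT671 stands in the labels. For DMSO_NEUR the treatment field reads undifferentiated but titles and descriptions read neural; the groups follow the titles. Whether replicates came from separate cultures is not stated, so the p-values below speak only of the spread between these libraries, which may be technical.

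In the integrated stress response, kinases that sense different stresses phosphorylate eIF2, which lowers translation in general but raises that of the ATF4 mRNA. ATF4 then activates genes of amino acid supply, redox balance and, with CHOP, cell death, while a phosphatase bound to GADD34 reverses the mark. In the unfolded protein response, the ER membrane sensors PERK, IRE1 and ATF6 respond to misfolded protein: PERK phosphorylates eIF2, IRE1 splices the XBP1 mRNA, and ATF6 is cleaved to a transcription factor. XBP1 and ATF6 raise chaperones, folding enzymes and the degradation machinery. Much of this regulation lies in translation, splicing and protein cleavage, which read counts per gene do not measure, and the splice forms of XBP1 are summed in its count.

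Each library had between 15906471 and 17271155 reads over the table's genes. Values are normalized read counts, the deposited value minus 1, and 1 read equals 0.930 to 1.06 normalized counts. Fold changes are log2 values with their standard error from limma, fitted on log2 of the normalized count plus 1 over all 12 libraries, with Benjamini-Hochberg adjustment over 13310 genes. Genes with an adjusted p below 0.05 are spoken of as called. Only 27 of the 13310 genes, 0.203%, were called in neither NEUR against UNDIF nor FT671_NEUR against DMSO_NEUR. The table thus holds almost only genes that differ between these groups, and how its genes were chosen is not given in the sources used here. USP7 mRNA was 3940.0 ± 117 (SD, n = 3) in DMSO_NEUR and 2630.2 ± 22.3 in FT671_NEUR (−0.58 ± 0.06, adjusted p = 9.51e-08), and FT671 acts on the protein, so this level does not check the treatment.

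The labelled cell states were compared with marker lists. In UNDIF, the 11 of 12 pluripotency genes in the table summed to 104450 to 105770 normalized counts, and in NEUR to 20466 to 23824, with TDGF1 at 0. They summed to 22056 to 24573 in DMSO_NEUR and 15802 to 16403 in FT671_NEUR. These sums hide single genes, and SOX2 was on both this list and the neural progenitor list. POU5F1 was 2280.6 to 2624.5 in UNDIF, 0 to 1.96 in NEUR, 0 to 2.91 in DMSO_NEUR and 2.12 to 6.31 in FT671_NEUR. The 9 of 11 neural progenitor genes in the table summed to 28636 to 32907 in UNDIF, 45122 to 46372 in NEUR and 47594 to 48894 in DMSO_NEUR, but to 6590 to 6939 in FT671_NEUR, with FABP7 at 0 there. The 4 of 6 early neuron genes in the table, none of them at 0, summed to 2643 to 3011 in UNDIF and to less in the other groups, 683 to 851 in NEUR, 756 to 847 in DMSO_NEUR and 613 to 658 in FT671_NEUR. PAX6 was 9.56 to 18.0 and CDH2 43.5 to 69.4 in FT671_NEUR, below the range of every other group, so the neural label did not match the defining progenitor genes of these libraries. The 10 of 11 epithelial genes in the table, none of them at 0, summed to 173270 to 194920 in FT671_NEUR and 38986 to 40711 in DMSO_NEUR, and to 48850 to 60549 in NEUR and 15733 to 15894 in UNDIF. The higher sum in NEUR than in UNDIF did not hold for each gene. KRT7 was 272 to 285 in UNDIF and 921 to 1196 in NEUR. GRHL2 went the other way, from 485 to 574 down to 72.4 to 97.8, and so did TFAP2A, from 66.0 to 74.3 down to 20.9 to 34.2. The 6 of 7 mesenchyme genes in the table, none of them at 0, summed to 14754 to 15809 in UNDIF, 98438 to 105230 in NEUR, 86218 to 97337 in DMSO_NEUR and 115370 to 119770 in FT671_NEUR. This sum was not broken down by gene. It can rest on few abundant genes and does not by itself show mesenchymal cells. The differentiation and FT671 differences below all come with these differences in marker genes, whose part in them was not tested, and in bulk RNA fewer cells of a type and less RNA per cell cannot be told apart. NEUR replicate 3 also stood apart: for 34 of the 36 genes it lay outside the range of the other NEUR libraries, and its deviation followed exon length (Spearman rho −0.862 across the 36 genes, which share 1 library). A library of a small group often lies outside the range of the others, and the share over all genes was not computed. Where the number of called genes of a role or list changed without it, both numbers are given; the counts of calls across both comparisons include it.

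Neural differentiation came with higher mRNA of ER-associated degradation genes, of most ER chaperones and of several stress-induced genes, and with lower mRNA of the serine synthesis enzymes PHGDH and PSAT1. In NEUR against UNDIF, 21 of the 36 genes rose, 7 fell and 8 were not called, which is 77.8% called against 82% of all genes of the table. The libraries of the 2 groups did not overlap for 29 of the 36, and for 80.2% of all genes. With at least a 2-fold change, 8 rose and 3 fell, against 15.4% and 16.5% of all genes in those directions. The median log2 fold change was 0.32 for the 36 genes and −0.03 for all genes. Without NEUR replicate 3 the counts were 23 and 8. The share called was thus close to that of the table, while rises outnumbered falls among these genes and did not among all genes, of which 40.4% rose and 41.6% fell.

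With FT671, 41.7% of the 36 genes rose and 33.3% fell, near the shares of all genes. The counts of single roles below rest on few genes and are to be read against the shares of all genes in the same comparison. In FT671_NEUR against DMSO_NEUR, 15 genes rose, 12 fell and 9 were not called, which is 75% called against 79.8% of all genes, of which 40.2% rose and 39.7% fell. The libraries did not overlap for 32 of the 36, and for 84.7% of all genes. At least a 2-fold change was reached by 5 genes, all of them higher (VLDLR, CEBPB, DNAJB9, ERN1 and EDEM1), where 16.4% of all genes rose and 14.4% fell by that much. The median log2 fold change was 0.12, and 0.01 for all genes. This split depended on the scaling, with 14 rises and 14 falls by TMM factors and 10 rises and 15 falls by library totals. Library totals moved the median log2 fold change of all genes to −0.11 here, −0.17 in NEUR against UNDIF and −0.27 in FT671_NEUR against UNDIF.

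**Figure D1:**
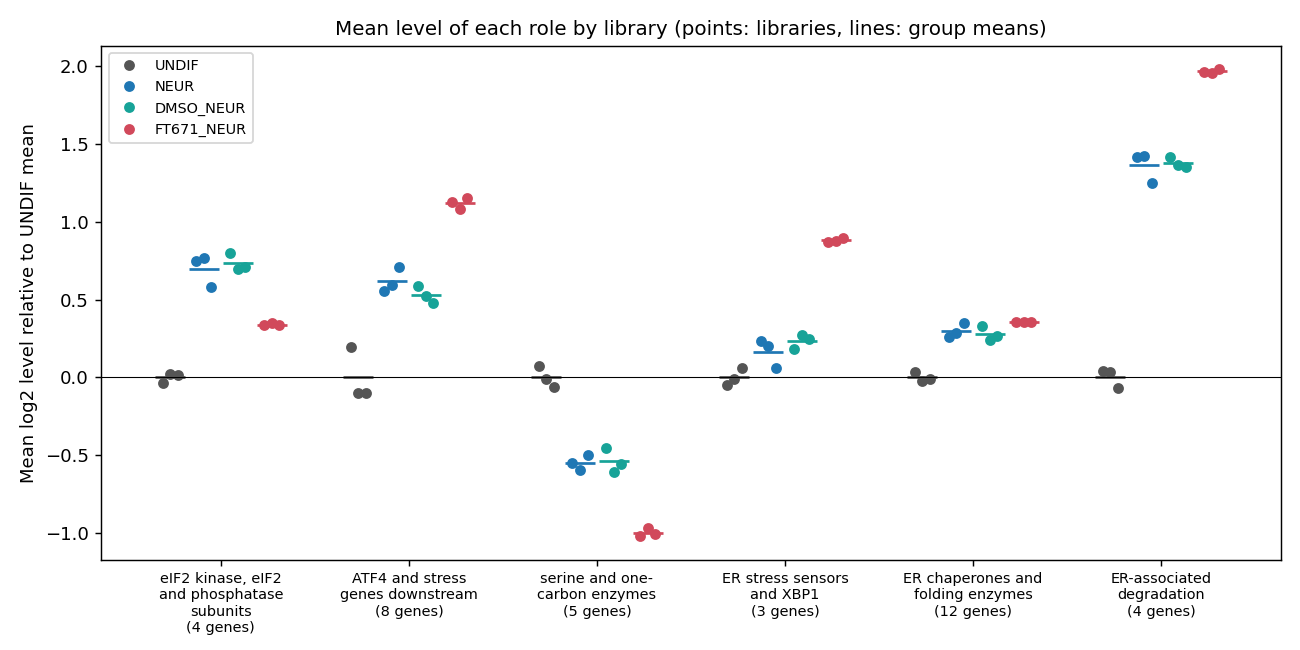
Mean log2 level of the genes of each role in every library, relative to the UNDIF mean of that role; points are libraries, short lines are the means of 3 libraries and colours are groups. Degradation genes lay at 1.25 to 1.42 in NEUR and 1.96 to 1.98 in FT671_NEUR, serine and one-carbon enzymes at −0.60 to −0.50 and −1.02 to −0.97, and the eIF2 genes at 0.58 to 0.77 and 0.33 to 0.35.

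Of the 4 genes around eIF2, 3 rose with differentiation and 3 fell with FT671. EIF2AK3 (ENSG00000172071), which encodes PERK, had 409, 405 and 431 normalized counts in UNDIF, 1075, 1029 and 877 in NEUR, 954, 1035 and 1036 in DMSO_NEUR and 662, 609 and 712 in FT671_NEUR. UNDIF was lowest, NEUR and DMSO_NEUR were highest, and FT671_NEUR lay between these levels without overlap. EIF2AK3 rose in NEUR against UNDIF (log2 fold change 1.25 ± 0.09, adjusted p = 8.19e-10) and fell in FT671_NEUR against DMSO_NEUR (−0.61 ± 0.09, adjusted p = 7.06e-06). PPP1R15A (ENSG00000087074), which encodes the stress-induced phosphatase subunit GADD34, had 605, 625 and 599.6 normalized counts in UNDIF, 1606, 1815 and 1882 in NEUR, 1977, 1638 and 1635 in DMSO_NEUR and 1051, 1090.1 and 996 in FT671_NEUR. The order of the groups was the same as for EIF2AK3, again with FT671_NEUR at an intermediate level. Its log2 fold changes were 1.53 ± 0.08 (adjusted p = 3.39e-11) and −0.74 ± 0.08 (adjusted p = 4.20e-07).

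EIF2S1 (ENSG00000134001), the phosphorylated alpha subunit of eIF2, changed less. It had 1593, 1766 and 1605 normalized counts in UNDIF, 2237, 2104 and 1958 in NEUR, 2305, 1958 and 2063 in DMSO_NEUR and 1857, 1923 and 1728 in FT671_NEUR. FT671_NEUR lay just below DMSO_NEUR and overlapped UNDIF. EIF2S1 rose with differentiation (0.34 ± 0.08, adjusted p = 6.53e-04), and its fall with FT671 was small (−0.20 ± 0.08, adjusted p = 0.0272), with an adjusted p of 0.146 without DMSO_NEUR replicate 1, 0.0514 without FT671_NEUR replicate 1 and 0.116 without FT671_NEUR replicate 3. PPP1R15B (ENSG00000158615), the constitutive counterpart of GADD34, was 2141 ± 99.9 in UNDIF and 1717 ± 277 in NEUR, and fell (−0.33 ± 0.09, adjusted p = 0.00345). Without NEUR replicate 3, its lowest NEUR library, the fall was −0.19 (adjusted p = 0.00579). With FT671 it was not called (−0.04 ± 0.09, adjusted p = 0.725). Counting all 4 genes, 3 rose and 1 fell with differentiation, and 0 rose and 3 fell with FT671, by the reported fit, by TMM factors and by library totals.

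ATF4 mRNA and the genes downstream of it did not move as a block. ATF4 (ENSG00000128272) had 2977, 2640.0 and 2715 normalized counts in UNDIF, 3610.2, 3868 and 4598 in NEUR, 3999, 3541 and 3628 in DMSO_NEUR and 2951, 3248 and 2838 in FT671_NEUR. The NEUR libraries were all above UNDIF, and the FT671_NEUR libraries were below DMSO_NEUR and overlapped UNDIF. ATF4 rose with differentiation (0.53 ± 0.09, adjusted p = 3.17e-05) and fell with FT671 (−0.31 ± 0.09, adjusted p = 0.00428). Of the 8 genes of this role, 5 rose and 2 fell in NEUR against UNDIF (5 and 3 by library totals and without NEUR replicate 3), and 5 rose and 1 fell in FT671_NEUR against DMSO_NEUR (4 and 1 by TMM factors and by library totals).

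ATF3, DDIT3, TRIB3 and VLDLR rose with differentiation. ATF3 (ENSG00000162772), a stress-induced transcription factor, had 154, 154 and 146 normalized counts in UNDIF, 1084, 980.4 and 1069 in NEUR, 845, 1068 and 977 in DMSO_NEUR and 981, 1001 and 1096 in FT671_NEUR. UNDIF stood far below the other 3 groups, whose ranges overlapped. The rise with differentiation was 2.78 ± 0.09, adjusted p = 3.76e-14, and FT671_NEUR against DMSO_NEUR was not called (0.10 ± 0.09, adjusted p = 0.334).

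DDIT3 (ENSG00000175197), which encodes CHOP, was the lowest of these genes in reads. It had 33.5, 16.0 and 16.7 normalized counts in UNDIF, 55.7, 75.3 and 69.7 in NEUR, 53.5, 58.1 and 50.8 in DMSO_NEUR and 66.8, 67.3 and 77.5 in FT671_NEUR. UNDIF replicate 1 was above the other UNDIF libraries but still below every NEUR library. DDIT3 rose with differentiation (1.63 ± 0.24, adjusted p = 8.71e-06), by 1.45 to 1.96 when any of the 6 libraries was left out. With FT671 it was not called (0.37 ± 0.24, adjusted p = 0.158), although every FT671_NEUR library was above every DMSO_NEUR library, as was common in the table. With only these 2 groups fitted it was called higher (adjusted p = 0.0406).

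TRIB3 (ENSG00000101255), a pseudokinase induced by CHOP and ATF4, had 246, 204 and 225 normalized counts in UNDIF, 442, 459.9 and 507 in NEUR, 493, 425 and 438 in DMSO_NEUR and 840.3, 759 and 813 in FT671_NEUR. Its groups formed 3 levels without overlap: UNDIF, both neural groups, and FT671_NEUR. It rose in NEUR against UNDIF (1.06 ± 0.10, adjusted p = 2.29e-08) and in FT671_NEUR against DMSO_NEUR (0.83 ± 0.10, adjusted p = 4.95e-07). VLDLR (ENSG00000147852), a lipoprotein receptor whose gene is an ATF4 target, had 445, 469 and 423 normalized counts in UNDIF, 1037, 969 and 887 in NEUR, 741, 838 and 831 in DMSO_NEUR and 2261, 2159 and 2075 in FT671_NEUR. UNDIF was lowest and FT671_NEUR highest, as for TRIB3, but DMSO_NEUR lay below NEUR without overlap. Its rises were 1.11 ± 0.08, adjusted p = 1.11e-09, and 1.43 ± 0.08, adjusted p = 3.92e-11.

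CEBPB, CHAC1 and ASNS were not higher in NEUR than in UNDIF. CEBPB (ENSG00000172216), a transcription factor that partners CHOP, had 296, 242 and 266 normalized counts in UNDIF, 164, 195 and 205 in NEUR, 232, 183 and 175 in DMSO_NEUR and 549, 477 and 545 in FT671_NEUR. FT671_NEUR was above all other groups and NEUR below UNDIF. It fell with differentiation (−0.51 ± 0.13, adjusted p = 0.00157) and rose with FT671 (1.42 ± 0.13, adjusted p = 2.29e-08). CHAC1 (ENSG00000128965), which encodes a glutathione-degrading enzyme, had 190.4, 109 and 123 normalized counts in UNDIF, 105, 94.9 and 123 in NEUR, 130.3, 107 and 95.8 in DMSO_NEUR and 185, 168 and 189 in FT671_NEUR. UNDIF replicate 1 was higher than the other UNDIF libraries, and UNDIF and NEUR overlapped. CHAC1 was not called with differentiation (−0.35 ± 0.18, adjusted p = 0.0851, but 0.0459 without NEUR replicate 3, 0.0236 without UNDIF replicate 2 and 0.0203 by library totals). It rose with FT671 (0.71 ± 0.18, adjusted p = 0.00205).

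ASNS (ENSG00000070669), asparagine synthetase, the enzyme whose promoter is the textbook target of ATF4, had 1749, 1903 and 1532 normalized counts in UNDIF, 705, 656 and 753 in NEUR, 748, 687 and 717 in DMSO_NEUR and 807, 815 and 823 in FT671_NEUR. All NEUR, DMSO_NEUR and FT671_NEUR libraries were far below UNDIF. It fell with differentiation (−1.29 ± 0.08, adjusted p = 2.73e-10). The rise with FT671 was 0.19 ± 0.08 (adjusted p = 0.0493), and it was lost by TMM factors (0.142), by library totals (0.489), and without DMSO_NEUR replicate 2 (0.15), DMSO_NEUR replicate 3 (0.0937), FT671_NEUR replicate 1 (0.0847), replicate 2 (0.0934) or replicate 3 (0.103).

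**Figure D2:**
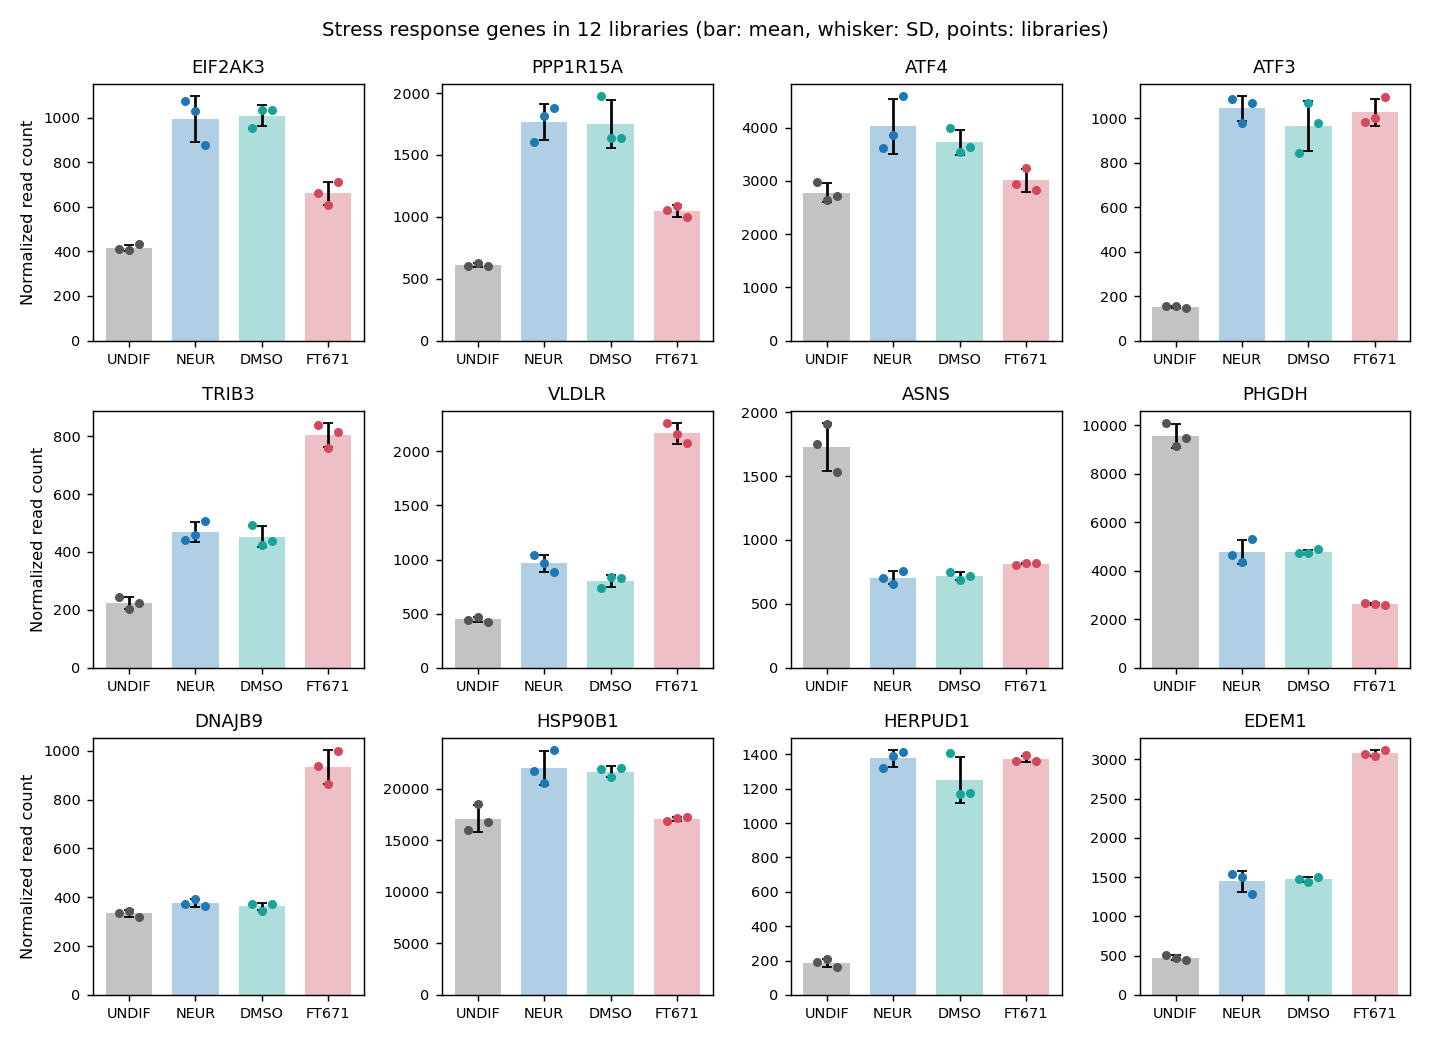
Normalized read counts of 12 of the genes in the 4 groups; bars are means, whiskers SDs and points the 3 libraries of each group (DMSO and FT671 stand for DMSO_NEUR and FT671_NEUR). EIF2AK3 and PPP1R15A are lower in FT671 than in DMSO, TRIB3, VLDLR, DNAJB9 and EDEM1 are higher, and ATF3 and HERPUD1 are at similar levels in the 3 differentiated groups.

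Of the serine and one-carbon enzymes, PHGDH, PSAT1 and MTHFD2 fell in both comparisons, while SHMT2 was not called with FT671 and PSPH not with differentiation. PHGDH (ENSG00000092621), which catalyses the first step of serine synthesis from a glycolytic intermediate, had 10102, 9141 and 9481 normalized counts in UNDIF, 4666, 4354 and 5314 in NEUR, 4729, 4749 and 4887 in DMSO_NEUR and 2653, 2635 and 2587 in FT671_NEUR. The 4 groups formed 3 levels without overlap, UNDIF highest and FT671_NEUR lowest. PHGDH fell in NEUR against UNDIF (−1.01 ± 0.07, adjusted p = 9.50e-10) and in FT671_NEUR against DMSO_NEUR (−0.87 ± 0.07, adjusted p = 6.81e-09). PSAT1 (ENSG00000135069), the transaminase of the next step, had 4592, 4461 and 4386 normalized counts in UNDIF, 2058, 1882 and 1821 in NEUR, 2139, 1785 and 1819 in DMSO_NEUR and 1706, 1681 and 1616 in FT671_NEUR. Nearly all of its change was between UNDIF and the other groups. It fell with differentiation (−1.22 ± 0.07, adjusted p = 1.28e-10). Its fall with FT671 was −0.19 ± 0.07 (adjusted p = 0.0238, 0.156 and a log2 fold change of −0.11 without DMSO_NEUR replicate 1, and 0.0793 without FT671_NEUR replicate 3).

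PSPH (ENSG00000146733), the phosphatase that completes serine synthesis, had 613, 572 and 531 normalized counts in UNDIF, 463, 506 and 555 in NEUR, 573, 501 and 486 in DMSO_NEUR and 266, 297 and 287 in FT671_NEUR. Here UNDIF and NEUR overlapped, and FT671_NEUR was below all other groups. PSPH was not called with differentiation (−0.17 ± 0.10, adjusted p = 0.107, but 0.0322 without NEUR replicate 3 and 0.0075 by library totals). It fell with FT671 (−0.87 ± 0.10, adjusted p = 3.21e-07). The mitochondrial enzymes SHMT2 (ENSG00000182199), which moves a carbon unit from serine to folate, and MTHFD2 (ENSG00000065911), which oxidises that unit, changed little. SHMT2 was 3635 ± 278 in UNDIF, 3239.6 ± 196 in NEUR, 3225 ± 131 in DMSO_NEUR and 2994 ± 113 in FT671_NEUR (SD, n = 3). MTHFD2 was 1604 ± 67.2, 1417 ± 87.6, 1433 ± 99.0 and 1198 ± 22.9 in the same order.

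Both fell with differentiation, SHMT2 by 0.17 (adjusted p = 0.0383) and MTHFD2 by 0.18 (adjusted p = 0.0281), and these calls were weak. The SHMT2 call was lost without NEUR replicate 1 (0.119), NEUR replicate 2 (0.111) or UNDIF replicate 1 (0.18, with a log2 fold change of −0.10), and with only the 2 groups fitted (0.098). The MTHFD2 call was lost without NEUR replicate 2 (0.0942), NEUR replicate 3 (0.0532), UNDIF replicate 1 (0.0712) or UNDIF replicate 2 (0.0743), and with only the 2 groups fitted (0.0679). With FT671, MTHFD2 fell (−0.26 ± 0.07, adjusted p = 0.00351) and SHMT2 was not called (−0.11 ± 0.07, adjusted p = 0.169). SHMT2 was called lower with FT671 by TMM factors (adjusted p = 0.0493) and by library totals (0.0064). In all, 0 of the 5 enzymes rose and 4 fell in each of the 2 comparisons. By library totals 0 rose and 5 fell in each, as they did by TMM factors with FT671. With differentiation 2 of the 5 fell without NEUR replicate 2 or without UNDIF replicate 1.

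ERN1, ATF6 and XBP1 all rose with FT671 (3 and 0, or 2 and 0 by library totals). ERN1 (ENSG00000178607), which encodes IRE1, had 141, 154 and 176 normalized counts in UNDIF, 188, 183 and 131 in NEUR, 179, 205 and 186 in DMSO_NEUR and 427, 399.8 and 441 in FT671_NEUR. NEUR overlapped both UNDIF and DMSO_NEUR, and every FT671_NEUR library was above all of them. ERN1 was not called with differentiation (0.08 ± 0.14, adjusted p = 0.586) and rose with FT671 (1.15 ± 0.14, adjusted p = 6.89e-07). XBP1 (ENSG00000100219), the mRNA that IRE1 splices, had 1648, 1456 and 1603 normalized counts in UNDIF, 1431, 1468 and 1636 in NEUR, 1482, 1399 and 1432 in DMSO_NEUR and 2026, 2111 and 2008 in FT671_NEUR. As for ERN1, every FT671_NEUR library was above all others, with log2 fold changes of −0.05 ± 0.07, adjusted p = 0.482 and 0.51 ± 0.07, adjusted p = 4.29e-06. By library totals XBP1 was called lower with differentiation (−0.19, adjusted p = 0.01985). ATF6 (ENSG00000118217) had 1233, 1388 and 1268 normalized counts in UNDIF, 1913, 1786 and 1662 in NEUR, 1748, 1947 and 1992 in DMSO_NEUR and 2252, 2321 and 2317 in FT671_NEUR. It rose in both comparisons (0.46 ± 0.07, adjusted p = 2.14e-05, and 0.28 ± 0.07, adjusted p = 0.00238), though by library totals the second was not called (adjusted p = 0.0564). With FT671 the genes of IRE1 and ATF6 thus rose, while that of PERK, EIF2AK3, fell.

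ER chaperones rose modestly with differentiation, and with FT671 some rose and some fell. The 6 highest NEUR levels per kilobase of exon among the 36 mRNAs were those of chaperones and folding enzymes, led by CALR with 12781 normalized counts per kilobase, HSP90B1 with 7692 and HSPA5 with 3079, whereas DNAJB9 had 139. ERN1 was the lowest of all, with 17.1 per kilobase. In NEUR against UNDIF, 8 of 12 rose and 0 fell, with a median log2 fold change of 0.32 and 0 beyond 2-fold; 10 rose without NEUR replicate 3, and by library totals 8 rose and 2 fell. In FT671_NEUR against DMSO_NEUR, 4 rose and 4 fell, 33.3% each, near the 40.2% and 39.7% of all genes. That split became 4 and 5 by TMM factors and 1 and 6 by library totals.

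Windows of 250 bases before the transcription start were read from RefSeq (GRCh38.p14) to show the elements through which ATF6, XBP1 and ATF4 are known to act. The search covered both strands for the ER stress element ERSE (CCAAT, 9 bases of any kind, then CCACG), its variant ERSE-II (ATTGG, any base, then CCACG), a core of the XBP1 element (TGACGTGG) and a core of the ATF4 element (TGATGNAA). Of the 36 genes, 34 had a window, and PSPH and SHMT2 had none. A gene may have several windows, so shares are given of all 27303 genes with a window. ERSE stood in 0.0916% of these genes and in 7 of the 34: CALR, CANX, CRELD2, HSP90B1, HSPA5, PDIA6 and XBP1. ERSE-II stood in 0.0659% of all such genes and in HERPUD1, HYOU1 and SDF2L1. The XBP1 core stood in 0.78% of them and in HYOU1. The ATF4 core stood in 3.89% of them and in ASNS, ATF3, CHAC1, HERPUD1 and PPP1R15B. A match is a description of the letters and not a site of binding. The 5 windows below are shown because they carry these elements in genes that moved differently with FT671; capitals mark the matches, which may be on the opposite strand. HSPA5 (chr9:125241344-125241593, minus strand), HSP90B1 (chr12:103930160-103930409, plus strand) and CALR (chr19:12938359-12938608, plus strand) hold ERSE. HERPUD1 (chr16:56931892-56932141, plus strand) holds the ATF4 core and then ERSE-II, and CHAC1 (chr15:40953221-40953470, plus strand) the ATF4 core.
HSPA5: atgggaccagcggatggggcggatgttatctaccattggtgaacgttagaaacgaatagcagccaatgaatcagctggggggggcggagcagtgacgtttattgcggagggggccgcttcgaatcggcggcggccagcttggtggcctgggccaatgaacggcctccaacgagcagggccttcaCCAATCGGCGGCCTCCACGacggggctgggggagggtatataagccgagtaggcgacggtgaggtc
HSP90B1: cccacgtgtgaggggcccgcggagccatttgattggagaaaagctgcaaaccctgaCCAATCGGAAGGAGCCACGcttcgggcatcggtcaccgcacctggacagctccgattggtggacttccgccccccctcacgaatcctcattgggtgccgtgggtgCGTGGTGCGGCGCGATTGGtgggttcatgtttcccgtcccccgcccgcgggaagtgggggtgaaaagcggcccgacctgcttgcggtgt
CALR: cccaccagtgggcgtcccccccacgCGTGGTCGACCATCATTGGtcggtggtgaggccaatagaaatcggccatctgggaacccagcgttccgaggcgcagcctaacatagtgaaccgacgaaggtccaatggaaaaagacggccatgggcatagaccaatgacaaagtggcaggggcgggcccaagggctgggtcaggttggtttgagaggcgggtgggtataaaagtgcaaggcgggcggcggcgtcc
HERPUD1: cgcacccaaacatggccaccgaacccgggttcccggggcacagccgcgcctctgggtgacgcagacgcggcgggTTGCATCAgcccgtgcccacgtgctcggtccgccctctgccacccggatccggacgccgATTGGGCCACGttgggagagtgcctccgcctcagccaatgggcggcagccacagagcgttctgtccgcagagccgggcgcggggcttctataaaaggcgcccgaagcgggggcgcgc
CHAC1: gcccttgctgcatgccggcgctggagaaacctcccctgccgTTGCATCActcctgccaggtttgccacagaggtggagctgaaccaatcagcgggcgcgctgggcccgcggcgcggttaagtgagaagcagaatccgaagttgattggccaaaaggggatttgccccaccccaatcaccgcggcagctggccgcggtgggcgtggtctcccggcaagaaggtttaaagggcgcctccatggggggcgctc

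Genes with ERSE did not share a direction with FT671: CALR, PDIA6 and XBP1 rose, HSP90B1 and CANX fell, and HSPA5 and CRELD2 were not called. Over all genes, 40.2% rose and 39.7% fell, so mixed calls among so few genes are not read as a trait of ERSE. HSPA5 (ENSG00000044574), which encodes BiP, the main ER chaperone and the protein that holds the sensors inactive, had 10284, 9847 and 9585 normalized counts in UNDIF, 11829.9, 12063 and 12210.0 in NEUR, 12672, 11542 and 12202 in DMSO_NEUR and 11012, 11284 and 11460.2 in FT671_NEUR. NEUR was above UNDIF in every library, and every FT671_NEUR library was just below DMSO_NEUR. HSPA5 rose with differentiation (0.28 ± 0.06, adjusted p = 5.25e-04) and was not called with FT671 (−0.11 ± 0.06, adjusted p = 0.116, but 0.0267 by TMM factors and 0.00222 by library totals). HSP90B1 (ENSG00000166598), the ER member of the HSP90 family, had 15968, 18518 and 16803 normalized counts in UNDIF, 21786, 20556 and 23768 in NEUR, 21966, 21122 and 21994 in DMSO_NEUR and 16897, 17203 and 17249.8 in FT671_NEUR. Here FT671_NEUR was back in the range of UNDIF. It rose with differentiation (0.37 ± 0.07, adjusted p = 2.53e-04) and fell with FT671 (−0.34 ± 0.07, adjusted p = 4.93e-04).

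CALR (ENSG00000179218), the lectin chaperone calreticulin, had 18333, 14817 and 15188 normalized counts in UNDIF, 22620.3, 24055 and 26291 in NEUR, 24219, 21372 and 22003 in DMSO_NEUR and 25279.7, 28484 and 26992 in FT671_NEUR. All 3 differentiated groups were above UNDIF, and FT671_NEUR was above DMSO_NEUR but overlapped NEUR. CALR rose with differentiation (0.60 ± 0.09, adjusted p = 1.33e-05). Its rise with FT671 (0.26 ± 0.09, adjusted p = 0.0162) was not called without DMSO_NEUR replicate 2 (0.0665), DMSO_NEUR replicate 3 (0.0505) or FT671_NEUR replicate 2 (0.071), nor by library totals (0.167). Its membrane-bound partner CANX (ENSG00000127022), calnexin, was 10824 ± 747 in UNDIF, 12047 ± 1088 in NEUR, 12412 ± 947 in DMSO_NEUR and 9829.6 ± 224 in FT671_NEUR. CANX fell with FT671 (−0.33 ± 0.08, adjusted p = 0.00115) and was not called with differentiation (0.15 ± 0.08, adjusted p = 0.0877; 0.0053 without NEUR replicate 3, 0.0386 without UNDIF replicate 2).

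DNAJB9 (ENSG00000128590), a BiP co-chaperone that also binds IRE1, changed most of the chaperones. It had 337, 345 and 319.8 normalized counts in UNDIF, 373, 394 and 365 in NEUR, 371, 345 and 371 in DMSO_NEUR and 939, 864 and 1000.1 in FT671_NEUR. UNDIF, NEUR and DMSO_NEUR lay close together and FT671_NEUR far above them. DNAJB9 rose with FT671 (1.36 ± 0.08, adjusted p = 1.49e-10) and was not called with differentiation (0.17 ± 0.08, adjusted p = 0.0628; 0.0428 without NEUR replicate 3). The protein disulfide isomerase gene PDIA6 (ENSG00000143870) had 6828, 7092 and 7149 normalized counts in UNDIF, 6766, 6823 and 6741 in NEUR, 6569, 6560.1 and 6670.0 in DMSO_NEUR and 7456, 7776 and 8158 in FT671_NEUR. It rose with FT671 (0.24 ± 0.06, adjusted p = 0.00123, but 0.0719 by library totals). With differentiation it was not called (−0.05 ± 0.06, adjusted p = 0.419), but was called lower by library totals (−0.19, 0.00637).

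The disulfide isomerase gene PDIA4 (ENSG00000155660) was 8415 ± 212 in DMSO_NEUR and 7271 ± 161 in FT671_NEUR, and fell (−0.21 ± 0.06, adjusted p = 0.00592), after a rise with differentiation of 0.28 ± 0.06. HYOU1 (ENSG00000149428), a nucleotide exchange factor of BiP, fell with FT671 from 6821 ± 172 to 5615 ± 199 (−0.28 ± 0.07, adjusted p = 0.00151). The co-chaperone DNAJC3 (ENSG00000102580) rose in both comparisons (0.49 ± 0.08, adjusted p = 1.42e-05, and 0.22 ± 0.08, adjusted p = 0.0144). The latter call was lost without DMSO_NEUR replicate 2 (0.0536) or FT671_NEUR replicate 1 (0.0512), and by library totals (0.246). The small secreted or luminal factors MANF, SDF2L1 and CRELD2 rose with differentiation, by 0.41, 0.51 and 0.44, and were not called with FT671, except MANF, lower by library totals (adjusted p = 0.0299). The SDF2L1 call was lost without UNDIF replicate 2 (adjusted p = 0.0502), and without NEUR replicate 3, its highest NEUR library at 495, the rise was 0.27 (adjusted p = 0.0457).

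**Figure D3:**
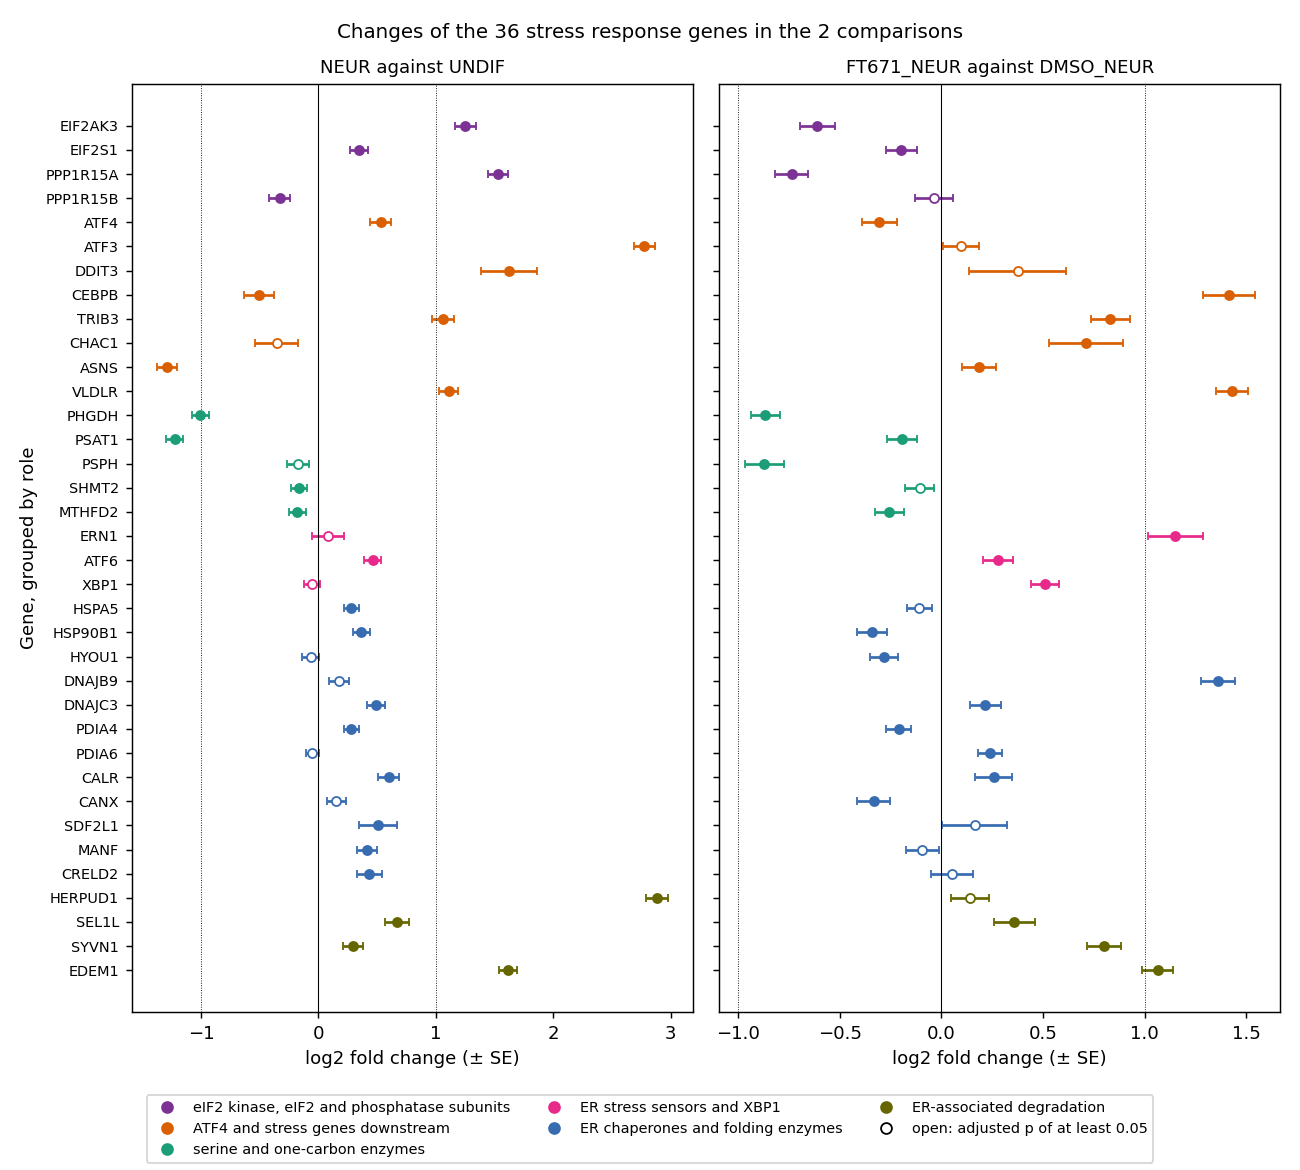
Log2 fold changes with standard errors of the 36 genes, ordered by role, in NEUR against UNDIF (left) and FT671_NEUR against DMSO_NEUR (right); filled points are called at an adjusted p under 0.05, open points are not, and dotted lines mark a 2-fold change. HERPUD1 at 2.88 and ATF3 at 2.78 are farthest right on the left, and VLDLR at 1.43 and CEBPB at 1.42 on the right.

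All 4 genes of ER-associated degradation rose with differentiation, and 3 of them rose further with FT671. HERPUD1 (ENSG00000051108), an ER membrane protein of the degradation complex, had 193, 207 and 161 normalized counts in UNDIF, 1323, 1393 and 1415 in NEUR, 1406, 1169 and 1177 in DMSO_NEUR and 1362, 1394 and 1362 in FT671_NEUR. UNDIF was 7.37-fold below NEUR, the largest ratio among the 36 genes in this comparison, and the other 3 groups overlapped. Its log2 fold changes were 2.88 ± 0.09, adjusted p = 4.41e-14 with differentiation and 0.14 ± 0.09, adjusted p = 0.182 with FT671 (0.0438 without DMSO_NEUR replicate 1). EDEM1 (ENSG00000134109), which hands misfolded glycoproteins to degradation, had 507, 465 and 442 normalized counts in UNDIF, 1538, 1507 and 1290.0 in NEUR, 1481, 1438 and 1498 in DMSO_NEUR and 3072, 3042 and 3117 in FT671_NEUR. It formed 3 levels without overlap, with rises of 1.61 ± 0.08, adjusted p = 4.76e-12, and 1.06 ± 0.08, adjusted p = 1.09e-09.

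The ubiquitin ligase gene SYVN1 (ENSG00000162298) had 486, 419.6 and 500.1 normalized counts in UNDIF, 565, 598 and 561 in NEUR, 603, 619.9 and 545 in DMSO_NEUR and 1026, 987 and 1063 in FT671_NEUR. Most of its change was with FT671. It rose by 0.30 ± 0.08 (adjusted p = 0.00391, 0.0936 by library totals) and 0.80 ± 0.08 (adjusted p = 1.67e-07). Its adaptor gene SEL1L (ENSG00000071537) had 1210.3, 1407 and 1201 normalized counts in UNDIF, 2321, 2155 and 1644 in NEUR, 2101, 2204 and 2309 in DMSO_NEUR and 2808, 2846 and 2816 in FT671_NEUR. NEUR replicate 3 was the lowest NEUR library but above every UNDIF library. SEL1L rose in both comparisons (0.67 ± 0.10, adjusted p = 1.27e-05, and 0.36 ± 0.10, adjusted p = 0.00405).

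The 2 comparisons share no library, and their calls were set against each other. They do share the estimate of each gene's spread, made over all 12 libraries, so NEUR replicate 3 enters the p-values of both. Among the 36 genes, 8 rose in both (TRIB3, VLDLR, ATF6, DNAJC3, CALR, SEL1L, SYVN1 and EDEM1), as did 17.2% of all genes. A rise with differentiation and a fall with FT671 was seen for 6 (EIF2AK3, EIF2S1, PPP1R15A, ATF4, HSP90B1 and PDIA4), and for 13.5% of all genes. PHGDH, PSAT1 and MTHFD2 fell in both, and CEBPB and ASNS fell with differentiation and rose with FT671, against 16.5% and 14.8%. PPP1R15B and SHMT2 fell with differentiation and were not called with FT671, against 10.4%. A further 7 rose with differentiation and were not called with FT671 (ATF3, DDIT3, HSPA5, SDF2L1, MANF, CRELD2 and HERPUD1), against 9.6%. CHAC1, ERN1, XBP1, DNAJB9 and PDIA6 rose and PSPH, HYOU1 and CANX fell with FT671 only by these calls, against 8.11% and 9.66%. By library totals CHAC1, XBP1, PDIA6, PSPH and HYOU1 were called lower with differentiation too (for HYOU1 −0.21, adjusted p = 0.00832). Whether the 2 effects differ was not tested for single genes.

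**Figure D4:**
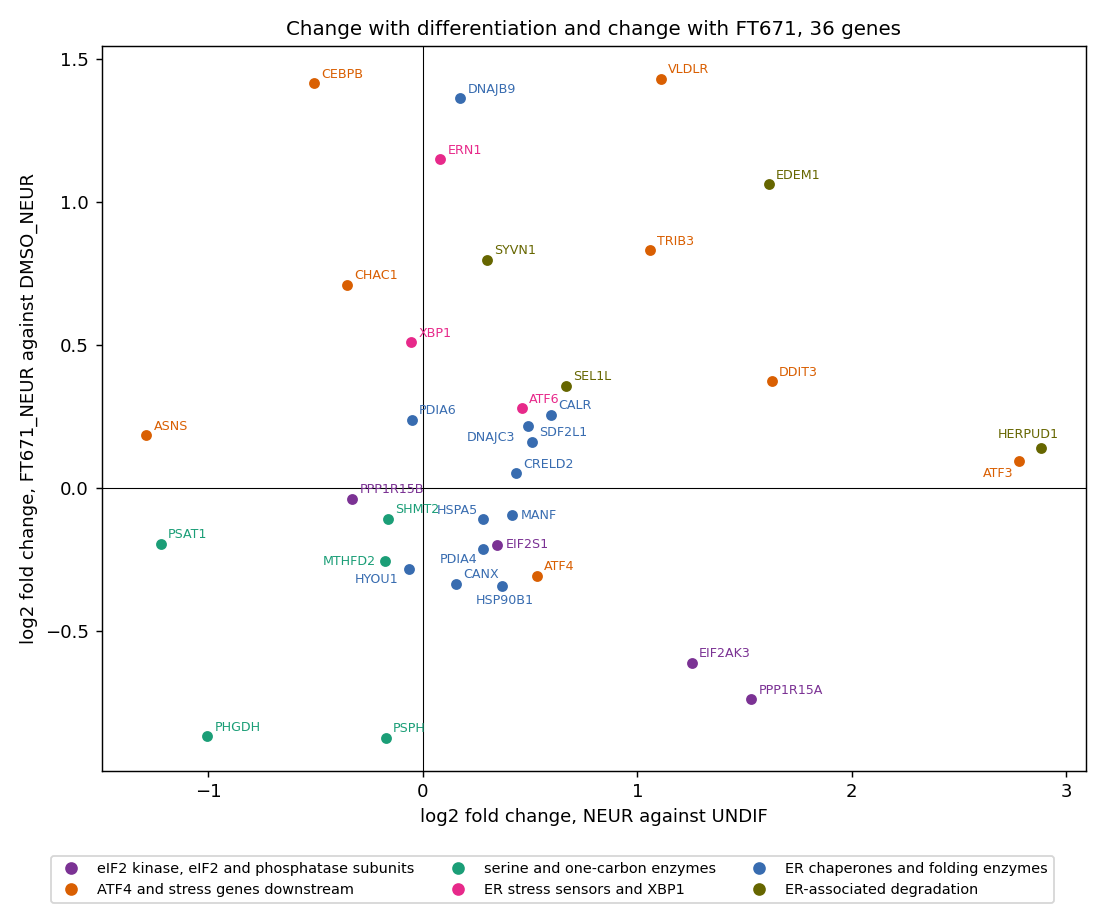
Log2 fold change with FT671 (FT671_NEUR against DMSO_NEUR, vertical) against that with differentiation (NEUR against UNDIF, horizontal) for the 36 genes, coloured by role. EIF2AK3 and PPP1R15A lie at the lower right, EDEM1, TRIB3 and VLDLR at the upper right, PHGDH and PSAT1 at the lower left, and DNAJB9 and ERN1 near 0 on the horizontal axis and above 1 on the vertical.

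None of the 36 genes was called for DMSO alone. In DMSO_NEUR against NEUR, limma called 0 of the 36 genes, against 0.398% of all genes, and 1 of the 36 had an unadjusted p under 0.05. The log2 fold changes ran from −0.29 for DDIT3 to 0.20 for ERN1, and VLDLR, lower by 0.26 with DMSO (adjusted p = 0.297), and PDIA6, lower by 0.04 (adjusted p = 0.862), were the 2 genes whose libraries did not overlap, as 12.3% of all genes did not.

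The FT671 cultures were also set against undifferentiated cells. This comparison shares libraries with the other 2 and is given side by side with them. In FT671_NEUR against UNDIF, 23 genes rose and 8 fell, and 10 rose and 4 fell at least 2-fold, where 88% of all genes were called (44% higher and 43.9% lower) and 23.8% rose and 23% fell at least 2-fold. EDEM1 differed by 2.71 ± 0.08, HERPUD1 by 2.88 ± 0.09, ATF3 by 2.75 ± 0.09 and VLDLR by 2.28 ± 0.08. PHGDH was lower by 1.87 ± 0.07, and all 5 serine and one-carbon enzymes fell. ATF4 (0.12 ± 0.09, adjusted p = 0.214) and HSP90B1 (0.00 ± 0.07, adjusted p = 0.957) were not called. Of the 12 chaperones 8 rose and 1 fell, but 4 rose and 4 fell by library totals, so their direction in this comparison depends on the scaling. Over all 36 genes, 17 rose and 11 fell by library totals, and 21 rose and 9 fell by TMM factors.

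Further genes of the same pathways, in lists written with earlier results of these data known, are given by counts. Only list genes found in the table are counted. Some, such as PDIA3, DERL1 and EIF2AK2, were not found in it, and how they changed is not known. Over all genes, 40.4% rose and 41.6% fell with differentiation, and 40.2% rose and 39.7% fell with FT671. Of 26 other ATF4 targets, 10 rose and 12 fell with differentiation (38.5% and 46.2%, close to the shares of all genes; median −0.06), and 15 rose and 7 fell with FT671 (57.7% and 26.9%; median 0.31; 12 and 7 by library totals). GDF15, a stress cytokine, was 74.2 ± 13.3 in UNDIF, 742 ± 99.7 in NEUR, 619 ± 26.6 in DMSO_NEUR and 2783 ± 753 in FT671_NEUR, and rose in both comparisons (3.31 ± 0.16, adjusted p = 4.64e-12, and 2.13 ± 0.16, adjusted p = 1.43e-09). STC2, a secreted glycoprotein, rose with differentiation by 2.71 ± 0.07, and INHBE, an inhibin subunit, fell by 3.30 ± 0.31. With FT671, ALDH1L2, a mitochondrial folate enzyme, rose from 204 ± 28.2 to 967 ± 29.2, and SLC7A11, the cystine transporter, fell from 944 ± 149 to 202 ± 42.9 (−2.23 ± 0.15, adjusted p = 4.62e-10).

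Aminoacyl-tRNA synthetases, many of them ATF4 targets, were 10 higher and 6 lower of 20 with differentiation (50% and 30%) and 7 higher and 11 lower with FT671 (35% and 55%). CARS1 and HARS1 rose with differentiation by 1.19 and 1.11, and LARS1 fell by 1.01. With FT671, LARS1 fell by 0.63 and FARSB by 0.75, and SARS1 rose by 0.57. Of 18 other one-carbon enzymes, 5 rose and 9 fell with differentiation (27.8% and 50%) and 4 rose and 10 fell with FT671 (22.2% and 55.6%). The S-adenosylmethionine synthetase gene MAT2A fell with FT671 from 2666 ± 219 to 697 ± 116 (−1.94 ± 0.10, adjusted p = 1.58e-11). ALDH1L1, a cytosolic folate enzyme, went the other way, from 3.89 ± 0.963 with DMSO to 83.6 ± 12.9 with FT671, after a fall from 71.9 ± 12.6 to 7.27 ± 7.51 with differentiation. SARDH and AMT, mitochondrial enzymes of glycine metabolism, fell with differentiation by 1.35 and 1.18.

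Of 12 other genes around eIF2, 6 rose and 3 fell in each comparison (50% and 25%). This list held eIF2 kinases, eIF2 and eIF2B subunits and phosphatase partners, and also IMPACT and DNAJC2. By library totals the counts were 3 and 4 with differentiation and 3 and 3 with FT671. PPP1CC, a catalytic subunit of the eIF2 phosphatase, fell by 0.83 with differentiation and by 0.80 with FT671, while PPP1CA and EIF2B2 rose with differentiation by 0.60 and 0.58. EIF2AK1, the heme-regulated eIF2 kinase gene, rose with FT671 by 0.47 ± 0.06 (adjusted p = 4.50e-06), where that of PERK fell, and DNAJC2, a ribosome-bound chaperone, fell by 0.81. Of 15 other ER stress transducers, 11 rose and 4 fell with differentiation (73.3% and 26.7%), and 4 rose and 5 fell with FT671 (26.7% and 33.3%). CREB3L1 and CREB3, relatives of ATF6 that are cleaved in the same way, rose with differentiation by 2.02 and 1.53, and ERN2 fell by 2.14. With FT671 the stress kinase gene MAP3K5 went from 29.5 ± 1.14 to 274 ± 2.40, a rise of 3.17 ± 0.20. The gene of the death effector BIM, BCL2L11, fell from 1594 ± 53.9 to 272 ± 48.5, and that of the ER membrane protein wolframin, WFS1, rose by 0.84.

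In the wider lists of ER folding and of degradation genes, more genes rose than fell in both comparisons. Of 48 other ER folding and translocation genes, 33 rose and 5 fell with differentiation (23 and 7 by library totals, 35 and 7 without NEUR replicate 3), and 32 rose and 3 fell with FT671 (25 and 7 by library totals), with medians of 0.29 and 0.37. With FT671, P4HB, a disulfide isomerase, went from 10493 ± 364 to 21297 ± 552, PDIA5 rose by 1.08 ± 0.08 and CRELD1 by 1.16 ± 0.13. The thioredoxin-family gene TXNDC11, the translocon-associated SSR3 and the prolyl isomerase FKBP14 rose with differentiation by 1.46, 1.34 and 1.33. Of 27 other degradation genes, 19 rose and 5 fell with differentiation and 14 rose and 5 fell with FT671 (11 and 7 by library totals). The ubiquitin-conjugating gene UBE2J1 went from 1089 ± 69.3 to 4022 ± 175 with differentiation (1.88 ± 0.06, adjusted p = 8.68e-14), and NPLOC4, a cofactor of the extraction ATPase, rose by 1.00. With FT671, EDEM2 and FAM8A1 rose by 1.22 and 1.38. DERL3, a derlin of the retrotranslocation channel, fell in both comparisons, by 1.30 and 1.46. Of the folding list 68.8% rose with differentiation and 66.7% with FT671, and of the degradation list 70.4% and 51.9%, against 40.4% and 40.2% of all genes.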

How the data were processed

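Polyadenylated RNA of 12 H9 libraries was sequenced. Per the submitters' processing notes, STAR, HTSeq, DESeq2 and R 4.3.1 were used on hg19; parameters and the choice of genes are not given in the sources used here. The deposited signal is a normalized value made by the authors, reads divided by 1 size factor per library plus 1: after subtracting 1, 100% of values were whole multiples of 1 step per library (tolerance 0.001). The sheet title names a USP7 heterozygote, the labels a wild type, and the labels were followed. A further 35 columns were not used.

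Values minus 1 were tested as log2(value + 1) with limma 3.58.1 (R 4.3.3), with a mean per group over 12 libraries, trended empirical Bayes variances and Benjamini-Hochberg adjustment over 13310 genes in each of 4 comparisons. The script was tested on simulated data. All 36 genes are named; further lists give up to 3 called genes with the largest change per comparison, except 1 gene that is not reported here. Reads shared with paralogs or antisense genes cannot be told apart in these totals. Lengths are exon unions of GENCODE annotation. The genes and lists were chosen with earlier results of these data known. Alternatives were TMM factors, library totals, pseudocounts of 0.5 and 5, a mean of at least 100, only the groups compared, a replicate block, and leaving out each library.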

Additional observations from a re-analysis of the deposited data

How the results depend on the processing

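Of 1868 values of single genes under the alternatives, 1785 kept their side of the threshold without a reversal of a called value (58 of these were uncalled values that changed sign), 53 lost the call, 25 gained it and 5 reversed. All 5 reversals were in FT671_NEUR against UNDIF by library totals, with log2 fold changes of −0.0865 for HSPA5, −0.27 for HSP90B1, −0.19 for PDIA4, −0.12 for PDIA6 and −0.0401 for MANF; that scaling lowers the median of all genes in this comparison to −0.27. By library totals 12 genes fell in NEUR against UNDIF, where 7 fell in the reported fit. Leaving out 1 library gave 21 to 23 rises and 5 to 8 falls in NEUR against UNDIF, 12 to 16 and 10 to 12 in FT671_NEUR against DMSO_NEUR, and 21 to 23 and 7 to 8 in FT671_NEUR against UNDIF. Rises of at least 2-fold ran from 7 to 8, stayed at 5, and ran from 10 to 11. Falls of at least 2-fold ran from 2 to 3, stayed at 0, and ran from 3 to 4. In DMSO_NEUR against NEUR all counts stayed at 0. Same-numbered libraries did not deviate together (correlations −0.172 to 0.0694), so numbers were not taken as pairs; with the replicate number as a block the rises and falls were 21 and 6, 14 and 12, 0 and 0, and 23 and 8 in the 4 comparisons, without the calls of SHMT2 with differentiation (0.0552) and of ASNS with FT671 (0.0687). The planned count test on recovered reads was not run. Depth limits DDIT3 most, at 16.0 to 33.5 normalized counts in UNDIF.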

Other observations

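Chaperone genes outside the ER were counted in the same way. Of 22 cytosolic heat shock genes, 7 rose and 11 fell with differentiation (5 and 13 by library totals), and 9 rose and 11 fell with FT671 (8 and 11). These are 31.8% and 50% with differentiation, against 40.4% and 41.6% of all genes, and 40.9% and 50% with FT671, against 40.2% and 39.7%. The largest changes of this list with FT671 were in small heat shock genes. CRYAB went from 43.1 ± 8.35 (SD, n = 3) with DMSO to 614 ± 56.4 in FT671_NEUR (a log2 change of 3.81 ± 0.18, adjusted p = 3.48e-12), after a fall from 187 ± 48.7 to 45.6 ± 3.92 with differentiation. HSPB8 went from 662 ± 33.5 to 3304 ± 73.8 (2.32 ± 0.10) and HSPB1 from 1096 ± 60.4 to 3755 ± 5.95 (1.78 ± 0.11). BAG3, the co-chaperone that binds HSPB8, rose with differentiation by 1.93 ± 0.08.

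Of 12 mitochondrial chaperones and proteases, 4 rose and 7 fell with differentiation (33.3% and 58.3%; 4 and 8 without NEUR replicate 3), and 2 rose and 4 fell with FT671 (16.7% and 33.3%; 1 and 5 by library totals). HSPD1, the mitochondrial chaperonin, was 10232 ± 683 in UNDIF, 6171 ± 239 in NEUR, 6161 ± 607 in DMSO_NEUR and 3132 ± 26.7 in FT671_NEUR, and fell in both comparisons (−0.73 ± 0.07 and −0.97 ± 0.07). Its partner HSPE1 fell with FT671 by 0.65, and the protease subunit gene CLPX rose by 0.39. OMA1, a protease of mitochondrial stress signalling, and TRAP1, the mitochondrial HSP90, fell with differentiation by 0.88 and 0.72.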
